A study of Mus musculus with 40 samples.

Results

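Wild-type (WT) aorta after 24 h of angiotensin II (Ang-II) infusion was compared with untreated WT aorta across every gene of the deposited expression table. The comparison rests on 6 of the 40 RNA-seq libraries of the series, 3 at 24 h and 3 untreated, which were chosen by their labels and not by any measured value. The comparison asks which transcripts differ in the vessel wall 24 h into the infusion, at a time when the treated mice were above the pressure limit set for inclusion. The mice were C57BL/6J males. The treated animals received Ang-II at 1 µg/kg/min from a subcutaneous osmotic minipump, and were kept only when their systolic pressure exceeded 130 mmHg. The labels call the other animals untreated. For this design the study describes mice aged 10 to 12 weeks, with controls that had surgery but no pump in place of CsA. Whether untreated animals had a further operation at the Ang-II step is not given in the sources used here, so Ang-II, its pump, that operation and the selection on pressure cannot be told apart. Each library was a pool of 3 aortas, perfused with saline and stripped of adventitia and perivascular tissue.

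Further libraries served for comparison. WT aortas after 2 h of Ang-II (n = 3) came from the same table. So did aortas of mice given cyclosporin A (CsA), an inhibitor of the phosphatase calcineurin, by minipump with or without 24 h of Ang-II (n = 3 each). The CsA pump was implanted 5 days before the Ang-II step, and its removal is not described. The study left out CsA mice in which inhibition of calcineurin was not seen in the thymus. A second table held Cn-Ctl mice, which by their labels carried the CnB1-flox allele without the Myh11-CreERT2 transgene (elsewhere the study also counts mice with the transgene and no floxed allele as Cn-Ctl) and had received tamoxifen at 1 mg daily for 5 days, 6 weeks earlier. Tamoxifen was started at 10 to 12 weeks of age. They were either untreated or given Ang-II for 24 h (n = 2 each). The study discarded 1 untreated Cn-Ctl replicate because it deviated from the other 2 in a principal component analysis. Replicate 1 is absent from both groups, and no reason is given for the 24 h group. By the study, WT, CsA and Cn-Ctl mice given Ang-II were all kept only above the same limit of 130 mmHg.

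Ang-II acts on its type 1 receptor in vascular smooth muscle, where it raises intracellular calcium, contracts the cell and starts signalling through MAP kinases, calcineurin and growth factor receptors. Over hours to days the same hormone is known to change the composition of the vessel wall: matrix genes, chemokines and adhesion molecules are induced, and leukocytes can enter. The aortic media consists mainly of smooth muscle cells, which can leave their contractile state after injury or stimulation.

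The 6 libraries held 19570000 to 28060000 reads, as rebuilt from the deposited values. The signal given below is the deposited value, the number of reads plus 0.5, scaled by 1 factor for each library. These values sum to 877583 to 1003928 in the 6 libraries, so the factor does not follow the recovered reads alone. The signal is not divided by transcript length, so levels are compared between samples of 1 gene and never between genes. Smooth muscle markers were present in every library, with a summed signal over 25 contractile genes of 43100 to 57100 in the untreated libraries and 36700 to 50600 at 24 h. Summed markers of fat (2960 to 5020 untreated and 4190 to 4740 at 24 h) and of adventitial fibroblasts (3030 to 4530 and 3790 to 4720) were present in both groups with overlapping ranges. The sum of 14 skeletal and heart muscle genes varied from 84.5 to 601 between untreated libraries and from 145 to 634 at 24 h, and that of 6 blood genes from 60.3 to 444 and from 204 to 805. None of these 20 genes passed the test in limma (2 at an unadjusted p under 0.05), against 1 in edgeR and 2 in DESeq2. Library 2 at 2 h and CsA 24 h library 3 stood farther from their replicates than the others of their groups. In bulk tissue, fewer cells of a type and less RNA per cell cannot be told apart.

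Of 15394 genes tested, 5073 (33.0%) differed between 24 h and untreated at an adjusted p under 0.05, 2562 higher (16.6%) and 2511 lower (16.3%). More than 2-fold differences were less even, with 778 genes higher (5.05%) and 464 lower (3.01%). At more than 4-fold the numbers were 159 and 27. Over all genes tested the median log2 difference was -0.012, so the lists below are read against a value near 0. The 3 untreated and the 3 treated libraries did not overlap for 7559 genes (49.1%). The test was limma on log2(signal + 0.5), with Benjamini-Hochberg adjustment over all genes tested, and every adjusted p below comes from it. Log2 differences are on that scale, which understates the change of genes at low signal.

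**Figure D1:**
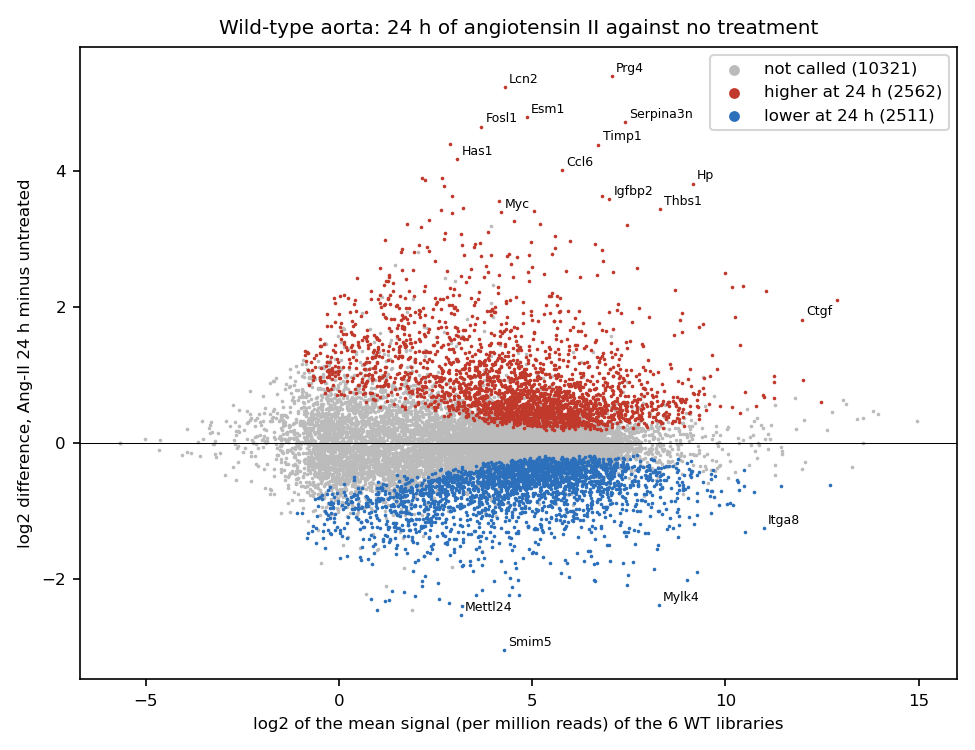
Each point is 1 gene, with the log2 of its mean signal over the 6 WT libraries on the horizontal axis and its log2 difference, Ang-II 24 h minus untreated, on the vertical axis. Red and blue points are the 2562 genes called higher and the 2511 called lower, and the largest rises (Prg4, Lcn2, Esm1) reach further from 0 than the largest falls (Smim5, Mettl24).

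The 12 genes with the largest rise encode secreted proteins for the most part. Prg4 (ENSMUSG00000006014, chr1:150449412-150466165 in GRCm38, minus strand) encodes lubricin, a mucin-like glycoprotein of joint and serosal surfaces. Its signal was 8.26, 2.90 and 6.51 in the untreated libraries and 162, 358 and 268 at 24 h (log2 difference 5.40, SE 0.41, adjusted p = 4.1e-07). Every treated library was above every untreated one by a wide margin. Lcn2 (chr2:32384633-32388252, minus strand), the iron-siderophore binding protein lipocalin 2, went from 0.769, 0.356 and 0.547 to 35.8, 38.7 and 42.00 (log2 difference 5.23, SE 0.47, adjusted p = 1.42e-06). Serpina3n (chr12:104406729-104414329, plus strand), a secreted serine protease inhibitor of the acute phase, measured 13.9, 10.6 and 11.1 in the untreated libraries and 256, 320.2 and 405 at 24 h (log2 difference 4.71, SE 0.34, adjusted p = 2.73e-07). Both genes were near the floor or low in each untreated library, and the 3 treated libraries lay close together.

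Timp1, an inhibitor of matrix metalloproteinases, read 11.1, 7.62 and 6.99 in the untreated libraries and 134, 324 and 147 at 24 h (log2 difference 4.38, SE 0.29, adjusted p = 1.72e-07). Esm1, an endothelial proteoglycan, read 1.79, 1.44 and 0.953 in the untreated libraries and 40.5, 97.7 and 33.1 at 24 h (log2 difference 4.78, SE 0.33, adjusted p = 2.24e-07). In both genes library 2 at 24 h stood above the other two treated libraries, and no treated library came near the untreated range. Has1, which makes hyaluronan, rose from 0.374, 0.393 and 0.466 to 15.5, 21.5 and 12.1 (log2 difference 4.17, SE 0.29, adjusted p = 2.19e-07). Fosl1, a component of the transcription factor AP-1, rose from 0.256, 0.731 and 0.426 to 24.6, 37.2 and 13.9 (log2 difference 4.65, SE 0.45, adjusted p = 2.59e-06).

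Ccl6, a chemokine of myeloid cells, rose by 4.01 on the log2 scale, Cxcl14, another chemokine, by 3.89, and Serpina3m, a relative of Serpina3n with which reads may be shared, by 3.86. Arg1 and Chil3, enzymes and lectins known from alternatively activated macrophages, were almost without reads in untreated aorta. Arg1 had 0, 3 and 0 reads there and 67, 760 and 417 reads at 24 h. The ratio, adjusted by the scaling of the deposited values, was 413 with a 95% exact interval of 141 to 2000. For Chil3 there were 2, 0 and 0 reads against 67, 443 and 231, a ratio of 369 (102 to 3050). These intervals cover counting error only. Library 1 was the lowest of the treated libraries for both genes.

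The 12 genes with the largest fall had smaller differences. Smim5, a small membrane protein, read 28.6, 36.8 and 39.3 in the untreated libraries and 3.67, 2.46 and 5.72 at 24 h (log2 difference -3.05, SE 0.24, adjusted p = 5.68e-07). Mylk4, a kinase of the myosin light chain kinase family, read 509, 552 and 503 in the untreated libraries and 100.5, 75.7 and 129.5 at 24 h (log2 difference -2.38, SE 0.31, adjusted p = 3.77e-05). Sel1l3 had 33.9, 35.9 and 35.6 in untreated aorta and 7.21, 7.21 and 6.89 at 24 h (log2 difference -2.23, SE 0.15, adjusted p = 1.66e-07). The groups did not overlap for any of the 12, as the selection required.

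Mettl24 fell by 2.52 on the log2 scale, Aknad1 by 2.39, Tceal6 by 2.35, Klhl38 by 2.29 and the voltage-gated potassium channel Kcnc4 by 2.23. The predicted gene 5430431A17Rik, Gprasp2, which binds G protein-coupled receptors during their sorting, the small GTPase Rab17 and the olfactory receptor family member Olfr224 fell by 2.24, 2.23, 2.18 and 2.16.

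**Figure D2:**
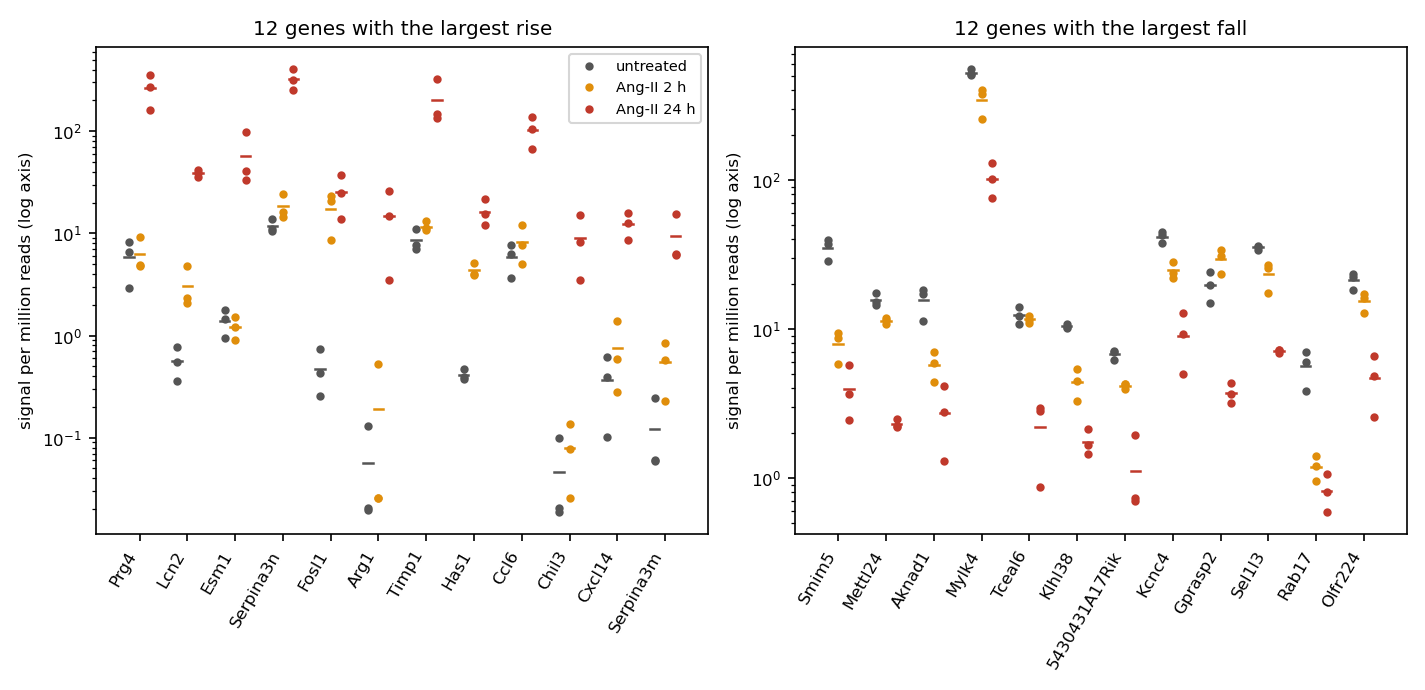
Signal in each WT library (log axis) for the 12 genes with the largest rise (left) and the 12 with the largest fall (right), with 3 libraries for each of untreated, Ang-II 2 h and Ang-II 24 h and a bar at each mean. Fosl1, Has1 and Lcn2 were above all untreated libraries at 2 h already, whereas the Esm1 libraries at 2 h and untreated overlapped; a library without a read is drawn at the value that 0.5 read gives.

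Of the 12 measured genes of the renin-angiotensin system, 0 rose and 3 fell (25.0%), with a median log2 difference of -0.32. Over all genes tested 16.6% rose and 16.3% fell. In a fit of the 6 libraries alone, 1 gene of this list rose and 6 fell. The type 1 receptors, through which Ang-II contracts the vessel, did not pass: Agtr1a read 2.31, 1.63 and 1.56 in the untreated libraries and 1.21, 2.93 and 1.48 at 24 h, and Agtr1b read 3.69, 5.11 and 8.53 in the untreated libraries and 3.05, 3.58 and 3.37 at 24 h (adjusted p = 0.977 and 0.0809). The Agtr1b libraries at 24 h all lay below the untreated ones. Among the 3 that fell, Nr3c2, the mineralocorticoid receptor, dropped from 20.8, 19.1 and 16.2 to 8.44, 5.31 and 7.28 (log2 difference -1.37, SE 0.18, adjusted p = 3.81e-05). Enpep, an aminopeptidase that degrades Ang-II, differed by -0.62 (SE 0.10), and Agtrap, which promotes internalization of the type 1 receptor, by -0.40 (SE 0.10). Ace, the converting enzyme, did not pass (-0.36, adjusted p = 0.0734).

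In the calcineurin pathway 1 of the 4 phosphatase subunit genes measured passed the test. Ppp3r1, the regulatory subunit, read 85.8, 88.97 and 89.99 in the untreated libraries and 87.5, 87.7 and 80.2 at 24 h (adjusted p = 0.736), and the catalytic subunits Ppp3ca (0.03) and Ppp3cb (-0.07) did not pass either. The catalytic subunit gene Ppp3cc rose from 6.96, 7.36 and 7.44 to 15.8, 14.8 and 11.4 (log2 difference 0.89, SE 0.12, adjusted p = 5.74e-05). Rcan1, a feedback inhibitor of calcineurin and a common readout of its activity, read 36.9, 30.7 and 45.2 in the untreated libraries and 107, 132 and 74.7 at 24 h (log2 difference 1.44, SE 0.21, adjusted p = 9.5e-05). Its relative Rcan2 went the other way, with 369.7, 492 and 496 in the untreated libraries and 169.99, 142 and 164 at 24 h (log2 difference -1.50, SE 0.27, adjusted p = 0.000504). Cabin1, another inhibitor of calcineurin, fell by 0.42 and Nfatc1 was the third member that fell, so that 2 of 13 measured genes rose and 3 fell around a median of -0.05.

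Immediate early genes, transcription factors switched on within minutes of a stimulus, were partly raised at 24 h. Of the 24 measured genes of this list, 10 rose and 1 fell, with a median log2 difference of 0.47. The 1 that fell was 0 without treated or untreated library 2 or 3 and 3 without untreated library 1. Besides Fosl1, the growth regulator Myc rose most, from 3.02, 2.72 and 2.17 to 32.7, 47.2 and 21.6 (log2 difference 3.39, SE 0.33, adjusted p = 2.52e-06). Junb differed by 1.80 (SE 0.25) and Ier3 by 1.11 (SE 0.25); the 3 treated libraries of Ier3 read 87.8, 77.4 and 48.8 against 26.8, 28.5 and 42.03 untreated. Jund (-0.33) and Klf6 (0.56) did not pass. The MAP kinase feedback list had 7 of 16 genes higher and 0 lower, led by the phosphatase Dusp5 (2.02) and by Errfi1 (1.96), which restrains the EGF receptor. Spry1 and Spry4, inhibitors of receptor tyrosine kinase signalling, rose by 0.99 and 0.94. Dusp1 (-0.06) and Dusp8 (-0.37) did not pass.

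Ligands of the EGF receptor split. Ereg (epiregulin) read 9.72, 10.2 and 12.5 in the untreated libraries and 50.7, 53.5 and 26.7 at 24 h (log2 difference 1.91, SE 0.27, adjusted p = 7.4e-05). Hbegf, which is shed from the cell surface in response to Ang-II, read 29.7, 35.5 and 38.5 in the untreated libraries and 133, 164 and 75.1 at 24 h (log2 difference 1.76, SE 0.32, adjusted p = 0.000569), and Tgfa rose by 0.90, a call lost without treated library 2 or 3 or untreated library 2 or 3. Btc (betacellulin) fell, with 17.9, 18.5 and 19.1 in the untreated libraries and 7.15, 4.50 and 8.42 at 24 h (log2 difference -1.44, SE 0.20, adjusted p = 6.71e-05). Egf and Nrg1 were low in all 6 libraries and did not pass.

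The contractile genes of smooth muscle did not move as a block. Of the 25 measured genes of this list, 3 rose and 9 fell, with a median log2 difference of -0.22. The median was -0.07 without treated library 3, -0.13 without treated library 2, -0.34 without treated library 1 and -0.14 without untreated library 3, and the number that fell was 6 without treated library 2 or untreated library 3. The most used markers of the lineage, Acta2 (-0.00, adjusted p = 0.993) and Tagln (0.19, adjusted p = 0.543), did not pass. Itga8, an integrin subunit of contractile cells, read 2646, 3079 and 2916 in the untreated libraries and 1362, 984 and 1312 at 24 h (log2 difference -1.25, SE 0.21, adjusted p = 0.000288), and every treated library lay well below the lowest untreated one. Mrvi1, a target of cGMP-dependent kinase in the control of calcium release, fell by 0.80 and Ppp1r12b, a regulatory subunit of myosin phosphatase, by 0.71. Myh11, Smtn, Lmod1, Mylk, Myl9 and Kcnmb1 were the other members that fell. Des (desmin) and Actg2 were among the 3 that rose, Des by 0.75, and this count of 3 was 1 without untreated library 1 or without treated library 1.

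Genes that set the calcium and potassium currents of the muscle cell were lower more often than higher. In calcium handling 11 of 31 genes fell and 1 rose (median -0.26), and 7 fell without treated library 2 or untreated library 3. The L-type calcium channel subunit Cacna1d read 27.5, 25.4 and 25.2 in the untreated libraries and 9.92, 7.45 and 10.2 at 24 h (log2 difference -1.47, SE 0.18, adjusted p = 1.75e-05). The channel subunit Cacna2d1 fell by 1.06 and the inositol trisphosphate receptor Itpr1 by 0.84, whereas Itpr3 rose by 0.74, a call lost without treated or untreated library 2. Among potassium channels 8 of 17 fell and 2 rose. Kcnab1 read 168, 196 and 182 in the untreated libraries and 76.3, 51.4 and 67.3 at 24 h (log2 difference -1.49, SE 0.19, adjusted p = 2.81e-05), Kcnq5 fell by 1.23, and Kcnk6 rose by 1.09. Without treated library 1 or 3 or untreated library 2 or 3, 1 channel gene rose.

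Receptors and enzymes of vessel tone showed a similar balance, with 12 of 35 genes lower and 5 higher, a number that was 3 without untreated library 2. Among the lower ones, Gucy1a3, a subunit of the nitric oxide receptor guanylate cyclase, read 235, 255 and 267 in the untreated libraries and 126, 79.8 and 103 at 24 h (log2 difference -1.31, SE 0.15, adjusted p = 8.2e-06). Its partner Gucy1b3, the cGMP-dependent kinase Prkg1 and the natriuretic peptide receptors Npr1 and Npr2 also fell, as did the phosphodiesterases Pde5a (by 1.37) and Pde3a, which degrade cyclic nucleotides. The alpha-1D adrenergic receptor Adra1d fell by 1.45. Endothelin 1 (Edn1), the endothelin receptor Ednrb, Ece1 and Nos3 rose (Nos3 not without treated library 1 or 3 or untreated library 2), and the bradykinin receptor Bdkrb1, which is known to be induced in inflamed tissue, rose most (0.65, 0.393 and 0.142 in the untreated libraries and 3.26, 7.48 and 2.65 at 24 h; log2 difference 2.39, SE 0.38, adjusted p = 0.000203).

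RGS proteins end signalling by G proteins. Of 13 measured, 4 rose and 4 fell. Rgs5, abundant in arterial smooth muscle and pericytes, read 1819, 1970.05 and 2406 in the untreated libraries and 952, 753 and 787 at 24 h (log2 difference -1.31, SE 0.21, adjusted p = 0.000194). Rgs7bp and Rgs11 fell by 1.58 and 1.56, and Rgs16 rose by 1.45. In the pericyte list, 3 of 8 fell (Rgs5, Notch3 and Abcc9) and none rose at the threshold, Cspg4 (-0.10) and Pdgfrb (-0.21) among those that did not pass. Among 6 connexins 2 rose and 0 fell, while Gja1 read 149.98, 141 and 162 in the untreated libraries and 273, 285 and 132 at 24 h and did not pass (adjusted p = 0.0909); treated library 3 lay below all untreated libraries and the other treated libraries above them. Without that library its log2 difference was 0.89 and passed (adjusted p = 0.000962, limma), as it did with DESeq2 (0.0189).

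The actin cytoskeleton and focal adhesion list had 15 of 35 genes higher and 2 lower (median 0.37). Itga5, the fibronectin receptor subunit, read 384, 476 and 725 in the untreated libraries and 2143, 2184 and 1341 at 24 h (log2 difference 1.85, SE 0.28, adjusted p = 0.000119). Ankrd1, a target of mechanical stretch signalling, rose by 2.44 (SE 0.45), the tropomyosin Tpm4 by 1.58 (SE 0.14) and ezrin (Ezr) by 1.57 (SE 0.43), a call lost without treated library 3. The number lower was 0 without treated library 2 or untreated library 3. Flna (-0.35) and Actn1 (0.22) did not pass.

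Matrix genes were raised in part. Of 19 collagen chains 7 rose and 2 fell, with 3 rising when untreated library 2 was left out. Col12a1 read 22.6, 23.3 and 24.6 in the untreated libraries and 76.9, 78.8 and 91.7 at 24 h (log2 difference 1.79, SE 0.20, adjusted p = 7.48e-06), Col5a2 and Col8a1 rose by 1.09 and 1.02, and the basement membrane chain Col4a5 fell by 1.00. Col3a1 and Col18a1 did not pass. The enzymes that process collagen were higher in 10 of 17 cases and lower in 1. Lox, which cross-links collagen and elastin, read 156, 138 and 134 in the untreated libraries and 763, 761 and 549 at 24 h (log2 difference 2.26, SE 0.22, adjusted p = 2.82e-06), and its relatives Loxl4 and Loxl2 rose by 2.51 and 1.39. P4ha3, a prolyl hydroxylase subunit, rose by 2.12.

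In the elastic fibre, 3 of 14 genes rose and 4 fell. Fbln5, which is needed to assemble elastic fibres, read 559, 493 and 514 in the untreated libraries and 231, 203 and 240.3 at 24 h (log2 difference -1.22, SE 0.18, adjusted p = 0.00013). Fbln2 took the opposite direction with 126, 76.9 and 83.2 in the untreated libraries and 225, 375 and 218 at 24 h (log2 difference 1.50, SE 0.19, adjusted p = 3.28e-05). Ltbp4 fell by 0.88 and Ltbp2 rose by 0.78, while elastin itself (Eln) read 2594, 2441 and 3269 in the untreated libraries and 4771, 4486 and 3794 at 24 h and did not pass (adjusted p = 0.0746) although its groups did not overlap.

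Matricellular proteins signal from the matrix without building it. Of the 19 measured genes of this list, 10 rose and 3 fell, with a median log2 difference of 0.74. Thbs1 (thrombospondin 1) read 63.5, 33.2 and 66.9 in the untreated libraries and 571, 665 and 491 at 24 h (log2 difference 3.44, SE 0.37, adjusted p = 5.96e-06). Spp1 (osteopontin) went from 4.36, 3.95 and 5.62 to 19.98, 58.4 and 34.9 (log2 difference 2.78, SE 0.30, adjusted p = 7.24e-06). Tnc (tenascin C) rose by 1.91 (SE 0.25) and Ctgf by 1.81 (SE 0.31), while Sparc (-0.05) and Postn (0.56) did not pass. In the hyaluronan matrix, 5 of 13 rose, namely Has1, Has2, Tnfaip6, the receptor Cd44 and Ptx3, and Hyal1 and Hapln1 fell. Cd44 read 40.4, 36.1 and 39.4 in the untreated libraries and 239, 324 and 142 at 24 h (log2 difference 2.51, SE 0.24, adjusted p = 2.18e-06), and Hapln1, which links hyaluronan to proteoglycans, read 7.35, 8.75 and 6.51 in the untreated libraries and 1.31, 1.03 and 1.83 at 24 h (log2 difference -2.10, SE 0.31, adjusted p = 0.000109).

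Proteases and their inhibitors were higher in 12 of 24 cases and lower in 4. Mmp3 (stromelysin 1) read 33.05, 19.5 and 17.8 in the untreated libraries and 147, 189.8 and 187 at 24 h (log2 difference 2.92, SE 0.27, adjusted p = 1.73e-06). The disintegrin protease Adam12 read 3.57, 4.66 and 3.35 in the untreated libraries and 33.7, 60.5 and 33.5 at 24 h (log2 difference 3.26, SE 0.33, adjusted p = 3.82e-06), and the aggrecanase Adamts4 rose by 2.54 (SE 0.38). Of the 12 that rose, 7 were members of the ADAMTS family. Timp3 (-0.01) and Mmp2 (0.44) did not pass. In the plasminogen system all 6 measured genes passed, 5 of them higher: Plaur, the urokinase receptor, read 8.65, 8.86 and 11.2 in the untreated libraries and 83.5, 124 and 52.7 at 24 h (log2 difference 3.04, SE 0.24, adjusted p = 5.68e-07). Urokinase (Plau) and the plasminogen-binding Anxa2 rose by 2.64 and 1.63, and the inhibitor Serpine2 fell by 1.19.

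Of 29 genes of TGF-beta and BMP signalling, 4 rose (Bmp4, Tgif1, Tgfb3 and Eng, by 0.60 to 0.84; Bmp4 not without treated or untreated library 2, Tgfb3 not without treated library 1) and 3 fell, a number that was 1 without untreated library 3. Smad2 read 20.5, 19.4 and 20.4 in the untreated libraries and 28.3, 26.5 and 19.1 at 24 h and did not pass (adjusted p = 0.145). Among 32 growth factors and their binding proteins 15 rose and 4 fell. Igfbp2, which binds insulin-like growth factors, read 18.5, 15.7 and 22.2 in the untreated libraries and 301, 239 and 168 at 24 h (log2 difference 3.59, SE 0.32, adjusted p = 1.53e-06), and Gdf6 rose by 2.31. In the list of genes tied to phenotypic switching of smooth muscle 9 of 18 rose and 2 fell. Lgals3 (galectin 3), also a macrophage product, read 9.68, 10.9 and 13.2 in the untreated libraries and 89.5, 92.7 and 72.2 at 24 h (log2 difference 2.86, SE 0.19, adjusted p = 1.66e-07), and Alpl, the alkaline phosphatase of mineralizing cells, rose by 2.53 (SE 0.18).

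**Figure D3:**
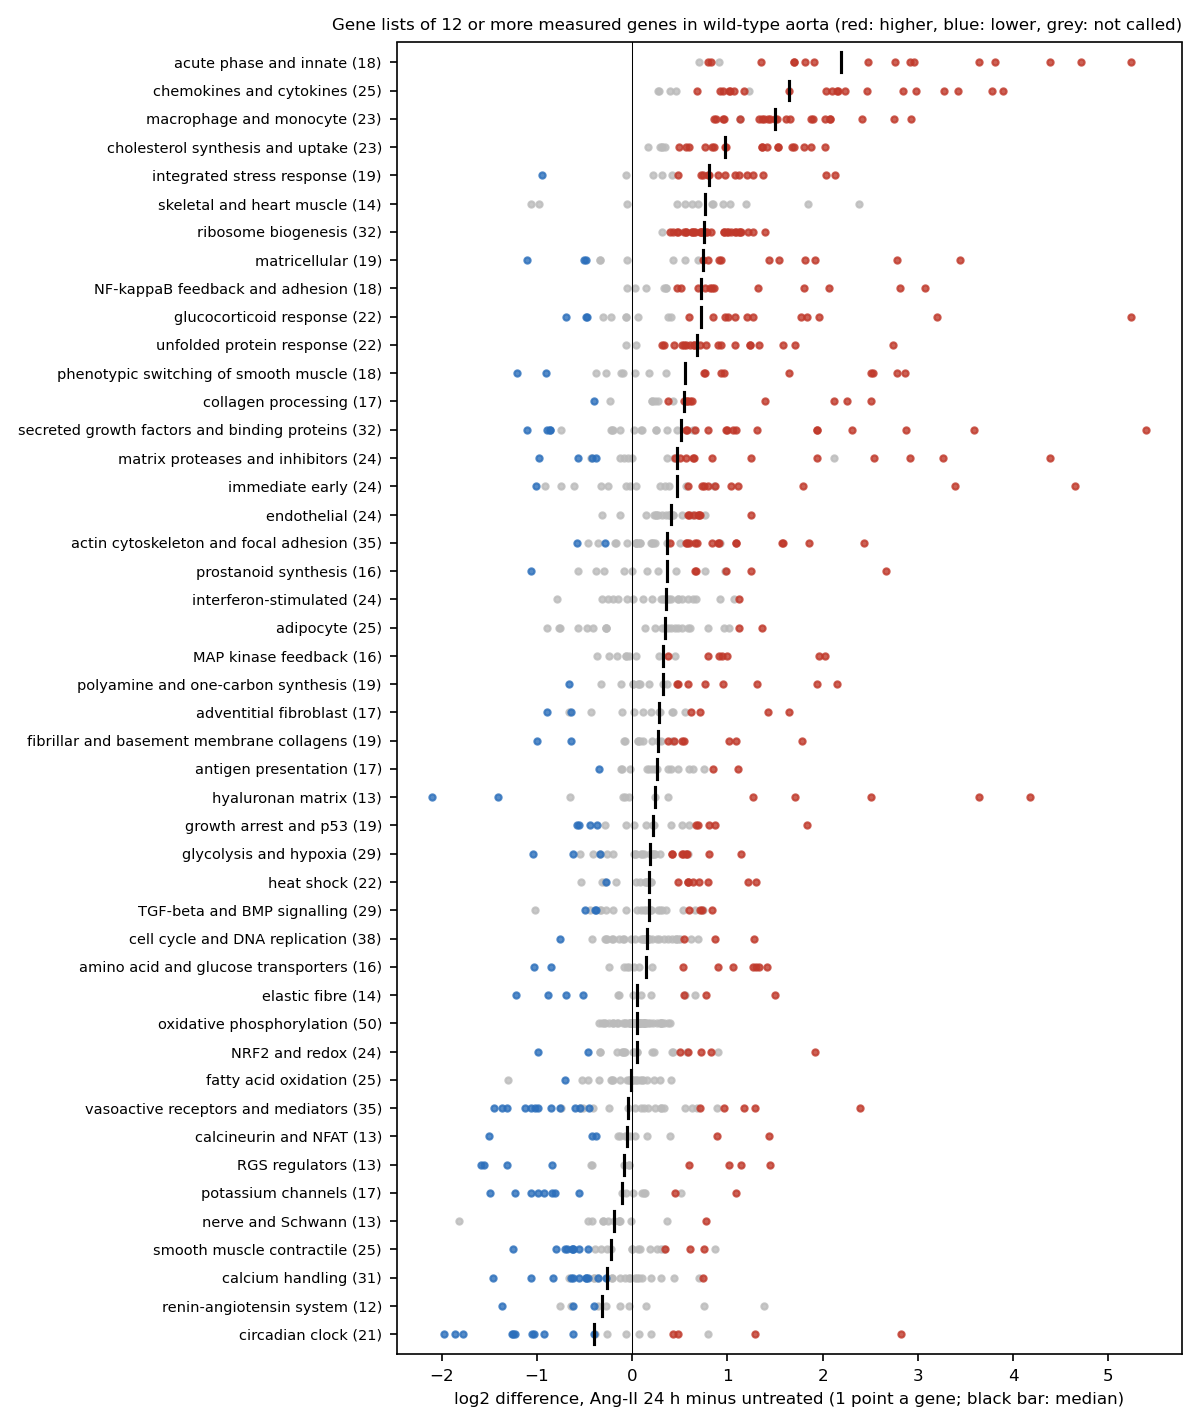
Log2 difference, Ang-II 24 h minus untreated, of each measured gene (points) in the gene lists with 12 or more measured genes, ordered by the list's median (black bar), with the number of measured genes in brackets. Acute phase, chemokine and macrophage lists lie farthest to the right, and the circadian clock list has the lowest median (-0.40).

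Inflammatory genes were among the most uniformly raised. Of the 25 measured genes of this list, 20 rose and 0 fell, with a median log2 difference of 1.65. Ccl2, which draws monocytes through the receptor Ccr2, read 0.611, 0.318 and 0.507 in the untreated libraries and 5.72, 15.05 and 7.99 at 24 h (log2 difference 3.27, SE 0.50, adjusted p = 0.000134), and its relative Ccl7 rose by 3.78 (SE 0.50). Il11, a cytokine of the IL-6 family, read 0.296, 0.318 and 0.791 in the untreated libraries and 6.23, 24.2 and 5.75 at 24 h (log2 difference 3.42, SE 0.41, adjusted p = 1.7e-05), with library 2 far above the other treated libraries. Csf1 (0.27) and Cx3cl1 (0.46) did not pass. Several of these genes are near 1 in all untreated libraries, and of the 10 members left when genes had to have a mean of 5 over all libraries of the table, 7 rose and 0 fell.

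The acute phase and innate list had 16 of 18 genes higher and none lower at the threshold, with the highest median of all lists (2.19). Haptoglobin (Hp), which captures free haemoglobin, read 93.7, 81.4 and 53.9 in the untreated libraries and 827, 1068 and 1316 at 24 h (log2 difference 3.81, SE 0.46, adjusted p = 1.85e-05). NF-kappaB feedback and adhesion genes were higher in 12 of 18 cases. Bcl3, a nuclear partner of NF-kappaB, read 1.44, 0.993 and 2.21 in the untreated libraries and 12.8, 18.4 and 17.9 at 24 h (log2 difference 3.07, SE 0.36, adjusted p = 1.46e-05). The endothelial adhesion molecules E-selectin (Sele), P-selectin (Selp) and Icam1 rose by 2.81, 2.06 and 1.80. The transcription factor genes themselves, Rela (-0.05) and Nfkb1 (0.14), did not pass.

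Leukocyte markers moved with these genes. Of 23 measured macrophage and monocyte genes 22 rose and none fell (median 1.50), and their summed signal was 195 to 271 in the untreated libraries and 553 to 809 at 24 h. None of these markers was without reads in untreated aorta. Ccr2, the Ccl2 receptor of inflammatory monocytes, read 4.12, 1.70 and 1.44 in the untreated libraries and 12.3, 37.9 and 17.4 at 24 h (log2 difference 2.93, SE 0.51, adjusted p = 0.000382). Itgam, the integrin of myeloid cells, read 5.06, 3.54 and 5.21 in the untreated libraries and 19.4, 55.6 and 34.5 at 24 h (log2 difference 2.75, SE 0.35, adjusted p = 2.95e-05), and Fcgr1 and Tyrobp rose by 2.42 and 2.08. In the neutrophil list, S100a9 and Csf3r rose out of 8 measured; the summed signal was 2.33 to 3 untreated and 5.85 to 13.9 at 24 h, and the defining genes Ly6g, Mpo, Elane and Camp were not among the genes tested. The count was 0 without treated library 2 or untreated library 3, 1 without treated library 3 or untreated library 1 or 2, and 5 in edgeR and in DESeq2. Of 7 measured lymphocyte genes 1 fell, the immunoglobulin gene Ighm (-0.99; not called without treated library 1 or 2 or untreated library 1), and most T and B cell genes of the list were not among those tested. The part of macrophages and other leukocytes in the chemokine, acute phase and NF-kappaB results was not tested.

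Endothelial markers were higher in 7 of 24 cases, a count that was 4 without treated library 3, 3 without untreated library 2 and 11 without untreated library 1. Emcn read 10.2, 11.6 and 10.04 in the untreated libraries and 21.8, 26.1 and 30.4 at 24 h (log2 difference 1.25, SE 0.23, adjusted p = 0.000602). Pecam1 (0.42) and Vwf (0.52) did not pass. Among adventitial fibroblast genes 4 of 17 rose, Ly6a and Dpep1 most (1.65 and 1.43), and 2 fell; the number that rose was 2 without treated library 2 or untreated library 3 and 8 without untreated library 1. Dcn (0.42) and Gsn (0.11) did not pass. Fat markers rose in 2 of 25 cases, Retn and Cidec, and in 0 without any one treated library or untreated library 3. Nerve markers rose in 1 of 13, the low gene Gfap, and in 0 without treated or untreated library 1 or 2.

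Interferon-stimulated genes and antigen presentation differed from the other inflammatory lists in their counts. Among 24 interferon-stimulated genes 1 rose, Oas1a, which lost its call in edgeR and without treated library 2 or 3 or untreated library 2 or 3, and none fell (median 0.35). Ciita and Nlrc5, master regulators of major histocompatibility genes, rose from low signal by 1.11 and 0.84, and 1 gene of that list, Tapbp, fell by 0.35. The 2 that rose were 0 without untreated library 2 or 3 and 1 without any one treated library, and Tapbp was called in neither edgeR nor any fit without treated library 1 or 2 or an untreated library. B2m (-0.11) and H2-D1 (0.17) did not pass. Prostanoid genes were higher in 5 of 16 cases. Ptgs2, the inducible cyclooxygenase, read 16.7, 26.3 and 42.2 in the untreated libraries and 221, 300.1 and 75.2 at 24 h (log2 difference 2.67, SE 0.44, adjusted p = 0.000239). Tbxas1 and Ptges rose by 1.25 and 0.98 (Ptges not without treated or untreated library 2 or 3), and the prostaglandin E2 receptor Ptger3 fell by 1.06. The number that rose was 3 without treated library 2 or 3 and 2 without untreated library 2.

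Most genes of ribosome synthesis rose. In ribosome biogenesis 31 of 32 genes rose, none fell, and the exception, nucleolin (Ncl), read 299.6, 339 and 346 in the untreated libraries and 419.96, 467 and 342 at 24 h (adjusted p = 0.0576). The median was 0.75 on the log2 scale. All 32 rose in DESeq2 and without treated library 3, and 28 did without treated library 2. Nhp2, a core protein of the ribonucleoproteins that modify ribosomal RNA, read 10.98, 12.3 and 12.5 in the untreated libraries and 28.95, 47.3 and 24.5 at 24 h (log2 difference 1.40, SE 0.17, adjusted p = 2.09e-05). Rrp12, Bop1 and Nop58 rose by 1.27, 1.21 and 1.14. In polyamine and one-carbon synthesis 8 of 19 genes rose and 1 fell. Mthfd2, a mitochondrial folate enzyme, read 5.73, 9.35 and 11.3 in the untreated libraries and 39.1, 43.2 and 36.1 at 24 h (log2 difference 2.15, SE 0.18, adjusted p = 7.56e-07), and the serine synthesis enzyme Psat1, spermidine synthase (Srm) and ornithine decarboxylase (Odc1) rose by 1.94, 1.31 and 0.95. Of 16 carriers of amino acids, glucose and other nutrients 7 rose and 2 fell. The lactate carrier Slc16a1 (1.41), the zinc carrier Slc39a14 (1.33) and Slc7a1 (1.30) were among those that rose.

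The unfolded protein response, which expands the folding capacity of the endoplasmic reticulum, was raised almost throughout. Of the 22 measured genes of this list, 20 rose and 0 fell, with a median log2 difference of 0.68. Hspa5 (BiP), the main chaperone of that compartment, read 276, 318 and 294 in the untreated libraries and 844, 1054 and 1013 at 24 h (log2 difference 1.71, SE 0.14, adjusted p = 5.68e-07). Sdf2l1, its cofactor, read 3.33, 2.19 and 3.02 in the untreated libraries and 13.7, 25.4 and 29.00 at 24 h (log2 difference 2.74, SE 0.25, adjusted p = 1.56e-06), and Manf and Hyou1 rose by 1.58 and 1.33. Herpud1 (0.04) and Sel1l (-0.07), both of the degradation branch, did not pass. The integrated stress response, run by the factor Atf4, had 14 of 19 genes higher and 1 lower. Asns (asparagine synthetase) read 3.96, 3.99 and 2.98 in the untreated libraries and 17.1, 20.2 and 15.7 at 24 h (log2 difference 2.13, SE 0.27, adjusted p = 2.61e-05), and Gdf15, Chac1 and Slc7a5 rose by 2.04, 1.38 and 1.27. Ddit3 (0.31) and Nupr1 (-0.07) did not pass.

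Factors of the unfolded protein response are known to bind a promoter element called ERSE, and Atf4 a C/EBP-ATF element (CARE). Promoters were read from RefSeq sequence of the build GRCm38.p6, 250 bases before the start of transcription, for 11067 of the genes tested. The letters of ERSE, CCAAT followed after 9 bases of any kind by CCACG, occur on either strand in 16 of these promoters (0.145%) and in 8 of 19 promoters of the unfolded protein response list (42.1%). Of the 16 genes, 10 rose and 0 fell, where 1935 and 1880 of all 11067 did. The 8 of the list are included in the 10. The letters TGATGNAA (CARE) occur in 271 promoters (2.45%) and in 7 of 16 of the integrated stress response list (43.8%), but 16.2% of the 271 genes rose, against 17.5% of all 11067. Such a match is a description of the letters only.

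The promoters of 4 genes with ERSE are shown because their genes rose, with the match in capitals, each written 5′ to 3′ along the gene. The genes Hsp90b1 (a chaperone, 0.65), Creld2 (1.24) and Pdia6 (a disulfide isomerase, 1.24) were picked after their values were seen. Hsp90b1 holds the element on both strands.
Hspa5 (chr2:34771840-34772089, plus strand): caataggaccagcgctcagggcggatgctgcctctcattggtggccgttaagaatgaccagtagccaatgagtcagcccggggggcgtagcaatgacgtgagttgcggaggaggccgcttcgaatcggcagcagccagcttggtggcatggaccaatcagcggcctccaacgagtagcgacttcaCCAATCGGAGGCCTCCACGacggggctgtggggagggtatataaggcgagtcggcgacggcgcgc
Hsp90b1 (chr10:86705445-86705694, minus strand): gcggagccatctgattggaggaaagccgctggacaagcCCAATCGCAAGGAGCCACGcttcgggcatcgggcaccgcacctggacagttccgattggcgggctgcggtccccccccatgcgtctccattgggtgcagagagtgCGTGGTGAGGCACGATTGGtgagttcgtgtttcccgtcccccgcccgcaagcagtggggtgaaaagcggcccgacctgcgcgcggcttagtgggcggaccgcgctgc
Creld2 (chr15:88819396-88819645, plus strand): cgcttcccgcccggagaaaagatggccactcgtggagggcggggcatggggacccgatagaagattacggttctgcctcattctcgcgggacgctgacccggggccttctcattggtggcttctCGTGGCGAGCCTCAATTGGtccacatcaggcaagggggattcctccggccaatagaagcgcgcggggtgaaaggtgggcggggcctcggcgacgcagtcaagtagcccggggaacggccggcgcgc
Pdia6 (chr12:17266339-17266588, plus strand): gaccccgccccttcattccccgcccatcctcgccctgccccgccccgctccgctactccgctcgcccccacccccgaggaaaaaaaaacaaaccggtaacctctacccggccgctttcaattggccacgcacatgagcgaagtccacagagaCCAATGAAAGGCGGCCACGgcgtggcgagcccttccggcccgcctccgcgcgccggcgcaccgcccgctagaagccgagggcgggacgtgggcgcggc

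The promoters of 2 genes with CARE come from members of the integrated stress response that rose, and the capitals mark that element.
Asns (chr6:7693210-7693459, minus strand): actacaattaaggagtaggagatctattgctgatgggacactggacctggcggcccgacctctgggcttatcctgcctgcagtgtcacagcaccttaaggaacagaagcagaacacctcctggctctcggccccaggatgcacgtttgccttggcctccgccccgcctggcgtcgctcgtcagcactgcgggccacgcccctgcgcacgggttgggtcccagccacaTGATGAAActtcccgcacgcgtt
Chac1 (chr2:119350992-119351241, plus strand): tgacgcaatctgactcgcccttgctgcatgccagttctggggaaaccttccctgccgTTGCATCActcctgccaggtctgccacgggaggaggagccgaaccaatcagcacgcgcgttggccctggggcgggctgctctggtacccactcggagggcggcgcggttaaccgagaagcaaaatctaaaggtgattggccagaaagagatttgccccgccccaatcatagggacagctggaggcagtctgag

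Other elements were searched in the same way. The sterol element TCACNCCAC was found in 1 of 15 promoters of the cholesterol list (6.67%, against 1.25% of all), and the AP-1 site TGANTCA in 2 of 15 of the protease list (13.3% against 5.72%). The E-box CACGTG was found in 5 of 17 clock promoters (29.4% against 9.52%) and the D-box TTATGNAA in 2 of 17 (11.8% against 2.43%).

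Cholesterol synthesis and uptake was the metabolic list with the highest median. Of the 23 measured genes of this list, 18 rose and 0 fell, with a median log2 difference of 0.97. Fdps, which makes farnesyl diphosphate, read 18.8, 18.3 and 21.3 in the untreated libraries and 74.03, 84.96 and 82.7 at 24 h (log2 difference 2.02, SE 0.20, adjusted p = 2.65e-06). Sqle, the epoxidase of squalene, read 17.8, 21.2 and 23.7 in the untreated libraries and 77.6, 84.1 and 60.8 at 24 h (log2 difference 1.80, SE 0.22, adjusted p = 2.44e-05), and Hsd17b7 and Idi1 rose by 1.88 and 1.69. The regulator Srebf2 (0.31) and Fdft1 (0.35) did not pass. By contrast, no gene of 50 in oxidative phosphorylation passed in limma over all 18 libraries (4 at an unadjusted p under 0.05), and 0 did in edgeR and DESeq2. In limma on the 6 libraries alone 4 rose and 2 fell, and 1 gene was called under quantile normalization or without treated or untreated library 3. Fatty acid oxidation had 1 of 25 lower, 0 without treated library 2 and 4 with the 6 libraries alone. In glycolysis and the response to hypoxia 8 of 29 rose and 3 fell. Pgk1 and Ldha rose by 1.14 and 0.81, while Pfkm and Ldhb fell by 1.04 and 0.62, the latter not without treated library 1 or 2 or any one untreated library. Without treated library 2, 5 genes of that list rose.

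Among NRF2 and redox genes 5 of 24 rose and 2 fell, 1 without treated library 2 or untreated library 2 or 3. Heme oxygenase 1 (Hmox1) read 6.68, 5.98 and 6.83 in the untreated libraries and 22.5, 27.3 and 28.5 at 24 h (log2 difference 1.92, SE 0.18, adjusted p = 2.27e-06). Nox4, the main NADPH oxidase of smooth muscle, read 380.1, 452 and 399 in the untreated libraries and 234, 149.7 and 247 at 24 h (log2 difference -0.99, SE 0.23, adjusted p = 0.00305), and Txnrd1 and Gsr rose by 0.82 and 0.72. Heat shock genes were higher in 8 of 22 cases, 4 to 5 when treated library 1 or 2 or untreated library 1 or 3 was left out. In this list 1 gene was lower, and 0 without any one of the 6 libraries. Hspb1 and Cryab, small heat shock proteins of muscle, rose by 1.30 and 1.22, whereas Hspa1b (-0.31) and Hsp90ab1 (0.20) did not pass.

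In the cell cycle list the count depended on the test, with 3 of 38 higher (Uhrf1, Cdt1 and Pcna) and 1 lower (Ccnd2, by 0.76). With edgeR 6 rose and with DESeq2 9, and without treated library 1 and 2 the counts were 8 and 1. In the growth arrest and p53 list 5 of 19 rose. Cdkn1a, the cell cycle inhibitor p21, read 27.1, 29.8 and 32.7 in the untreated libraries and 119, 105 and 98.7 at 24 h (log2 difference 1.83, SE 0.19, adjusted p = 3.93e-06), and Gadd45g, Plk2 and Bax rose by 0.87, 0.81 and 0.69. The 4 that fell were 1 without treated library 2 and 2 without untreated library 2.

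The circadian clock list had the lowest median of all lists (-0.40), with 11 of 21 genes lower and 4 higher. Arntl (BMAL1), the activator of the clock loop, read 0.966, 0.768 and 0.71 in the untreated libraries and 13.6, 8.46 and 5.82 at 24 h (log2 difference 2.83, SE 0.39, adjusted p = 6.15e-05). Some known clock-controlled genes were lower: Dbp read 474, 421 and 449 in the untreated libraries and 106, 125 and 141 at 24 h (log2 difference -1.86, SE 0.18, adjusted p = 2.49e-06), and Per3 read 168, 153 and 127 in the untreated libraries and 36.2, 35.4 and 61.6 at 24 h (log2 difference -1.77, SE 0.18, adjusted p = 3.46e-06). Hlf fell by 1.98. Per1 (-0.07) and Rora (0.19) did not pass. The hour at which aortas were collected is not given in the sources used here, and its part in these values was not tested. In the glucocorticoid list 12 of 22 rose and 3 fell, the latter 1 without treated library 2 and 5 without treated library 3. The metallothionein Mt2 read 25.99, 33.4 and 42.4 in the untreated libraries and 239, 344 and 363 at 24 h (log2 difference 3.20, SE 0.31, adjusted p = 2.65e-06), and Fkbp5, Tsc22d3 and Sgk1, common readouts of the hormone, were among those that rose.

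WT aortas at 2 h came from other mice of the same experiment. Both time points share the untreated libraries, so their values are set side by side and the difference was tested as 24 h against 2 h. That test called 5181 of 15394 genes (33.7%), 2416 higher at 24 h and 2765 lower, and 3952 to 4971 when a library was left out, the latter without library 2 at 2 h. Under quantile normalization the balance turned to 2529 higher and 2230 lower. At 2 h, 1638 genes were higher than untreated and 1491 lower (20.3% together). All 24 immediate early genes were higher at 2 h (median 2.31) and 10 were at 24 h (median 0.47). The heat shock list went from 20 of 22 higher (median 1.76) to 8 (median 0.18). Macrophage genes took the opposite course, with 1 of 23 higher at 2 h and 22 at 24 h.

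The genes below were selected on the difference between 24 h and 2 h, so its size is a description. Prg4 read 4.75, 9.18 and 4.91 at 2 h, within the untreated range or close to it, so that its response was larger at 24 h by 5.27 on the log2 scale. The corresponding differences were 4.93 for Esm1, 4.16 for Arg1, 4.12 for Serpina3n, 3.94 for Timp1, 3.81 for Chil3 and 3.63 for Igfbp2. Sdf2l1 read 1.41, 1.40 and 1.21 at 2 h, below its untreated values, and differed by 3.59.

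Other genes were highest at 2 h. Xirp1, an actin-binding protein of muscle, read 85.3, 113 and 154 untreated, 1322, 872 and 1354 at 2 h and 265, 268 and 171 at 24 h. Nr4a3, an orphan nuclear receptor, read 293, 212 and 245 at 2 h and 39.9, 37.5 and 31.9 at 24 h, and the transcription factor Nfil3 116, 83.6 and 114 and 23.3, 23.9 and 16.6. Responses were smaller at 24 h by 2.33 for Xirp1, 2.76 for Nr4a3, 2.27 for Nfil3 and 2.58 for the non-coding A730049H05Rik, all still above untreated at 24 h (a call lost for Xirp1 without treated library 2 or untreated library 1, and for Nr4a3 without untreated library 3). Otud1, a deubiquitinase, read 61.5, 75.6 and 85.4 untreated, 191, 157 and 188 at 2 h and 44.6, 39.2 and 19.2 at 24 h, so that it was above and then below the untreated level. Zdhhc23 had the same order of group means. Gprasp2 and Tceal6 fell at 24 h from a 2 h level of 30.8, 23.2 and 33.7 and 10.96, 11.5 and 12.3.

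**Figure D4:**
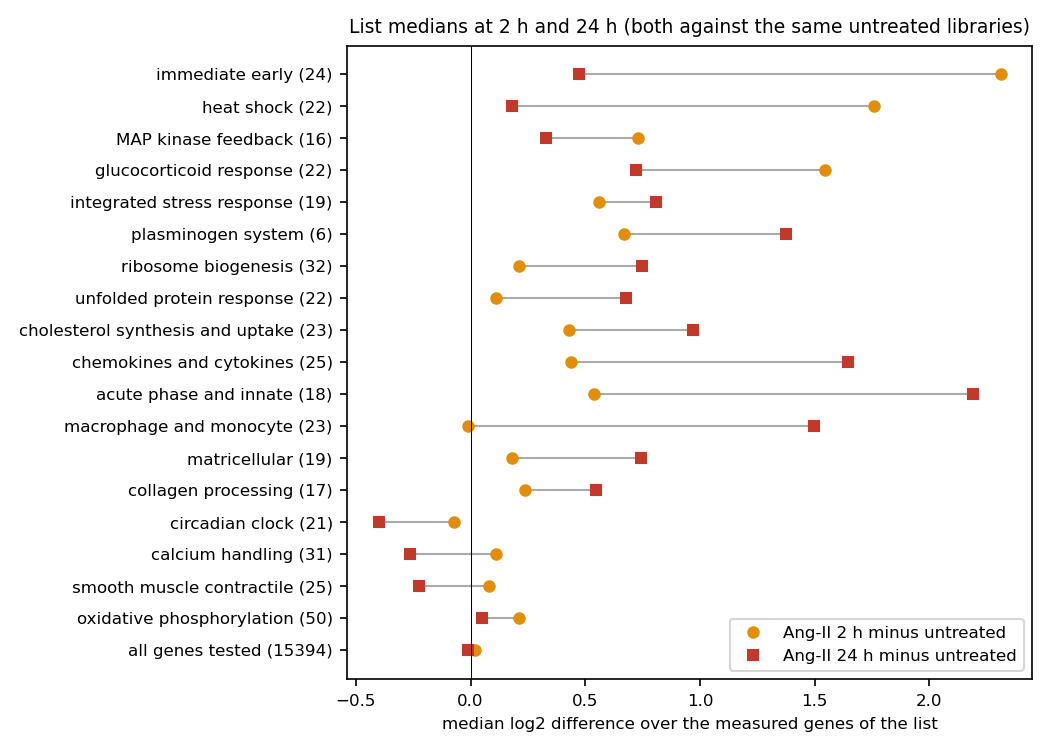
Median log2 difference from the same 3 untreated WT libraries at 2 h (orange circles) and 24 h (red squares) for selected gene lists and for all genes tested, with the number of measured genes in brackets. Immediate early, heat shock, MAP kinase feedback and glucocorticoid lists had the higher median at 2 h, and acute phase, chemokine and macrophage lists at 24 h.

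Pretreatment with CsA for 5 days went with a different 24 h response in part of these genes. In CsA-pretreated mice 1216 genes (7.9%) differed between 24 h of Ang-II and no Ang-II, 714 higher and 502 lower. The difference between the response in WT and in CsA-pretreated mice passed the test for 1263 genes (8.2%), with 647 higher and 616 lower in WT. Under quantile normalization the split was 632 and 927. The count depended on single libraries. It was 542, 469 and 2524 without CsA 24 h library 1, 2 and 3, 838 without untreated CsA library 2, 583 without WT 24 h library 2, and 592 and 765 without untreated WT library 2 and 3.

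Rcan1 differed in this test: in CsA-pretreated mice it read 32.3, 36.5 and 32.4 without and 42.8, 32.95 and 38.5 with Ang-II, a response of 0.17 against 1.44 in WT (difference 1.28, SE 0.30, adjusted p = 0.0182). Prg4 read 28.7, 22.4 and 17.7 and 40.4, 48.1 and 114 after CsA (difference 3.99, adjusted p = 0.00358). The unfolded protein response had 13 of 22 genes with a larger response in WT, the macrophage list 15 of 23, and the acute phase list 11 of 18. None of the 23 cholesterol genes differed at the threshold in limma (3 at an unadjusted p under 0.05) or edgeR, and 1 did in DESeq2, with medians of 0.97 in WT and 0.74 after CsA. Igfbp2 responded by 3.59 and 3.80 (adjusted p of the difference = 0.811).

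The starting point of these groups was not the same. Against untreated WT, the untreated CsA libraries had a median log2 difference of 2.09 over the interferon-stimulated list, 1.52 over antigen presentation, 1.84 over acute phase genes, 1.28 over macrophage genes and 0.82 over oxidative phosphorylation, with -0.02 over all genes. The endothelial list was also higher there (median 1.19). Smooth muscle contractile genes (-0.68) and the actin and focal adhesion list (-0.52) were lower. Summed contractile signal was 28300 to 32300 in untreated CsA libraries and 43100 to 57100 in untreated WT. Single genes also started higher there, by 3.37 for Lcn2, 2.73 for Serpina3n, 2.47 for Ccl6 and 1.96 for Prg4. Summed fat markers were 8890 to 15500 in untreated CsA libraries, and the summed macrophage signal was 501 to 599 there and 476 to 745 after 24 h of Ang-II. Of the 24 interferon-stimulated genes, 13 had a higher response in WT. Over all 24 the median response was 0.35 in WT and -1.44 after CsA. The part of this difference in the cellular makeup of the tissue was not tested.

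The 24 h comparison was also available in the Cn-Ctl mice, which share no sample with the WT groups. There 811 of 17402 genes passed (4.66%), 462 higher and 349 lower, from 2 libraries a group of 3969000 to 7106000 reads. The count was 230 without the 24 h library numbered 3, and 247 and 276 without the untreated libraries numbered 2 and 3, where a lone library is assumed to vary like the other groups. Without the 24 h library numbered 2 it was 1102, and the balance turned to 418 higher and 684 lower. Of the 456 genes higher in Cn-Ctl and present in both tables, 402 (88.2%) were also called higher in WT; seen from WT these were 15.9% of 2525 genes. Of the 343 lower, 285 (83.1%) were called lower in WT, which is 11.4% of 2506 genes. Opposite calls were made for 1 gene higher in WT and lower in Cn-Ctl, and for 0 genes the other way round.

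Genes called higher in WT had a positive difference in Cn-Ctl in 89.4% of cases, and those called lower had a negative one in 87.1%, against 47.5% positive and 52.5% negative over all 14987 genes in both tables. Across these genes the correlation of the log2 differences was 0.625, a description over genes, which are not independent replicates. Prg4 read 2.99 and 2.28 in untreated Cn-Ctl libraries and 79.6 and 103 at 24 h, a log2 difference of 4.87 (adjusted p = 9.9e-06). Serpina3n (3.41), Ccl6 (3.18), Timp1 (3.73) and Igfbp2 (4.88) were called higher there as well, and Mettl24 (-2.23), Sel1l3 (-1.83) and Olfr224 (-3.14) lower. Arg1 (1.41, adjusted p = 0.498) and Esm1 (2.98, adjusted p = 0.111) did not pass in Cn-Ctl. In the circadian list 9 genes fell and 1 rose in Cn-Ctl (median -1.03), and in the unfolded protein response 11 rose. In CsA-pretreated mice, by contrast, 0 of the 21 circadian genes passed at 24 h (median -0.055). The response was lower in WT than after CsA for 9 of them and higher for 1. Without Ang-II, 12 of the 21 already differed between CsA and WT (median -0.373, CsA minus WT), as did 3484 of all 15394 genes tested.

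**Figure D5:**
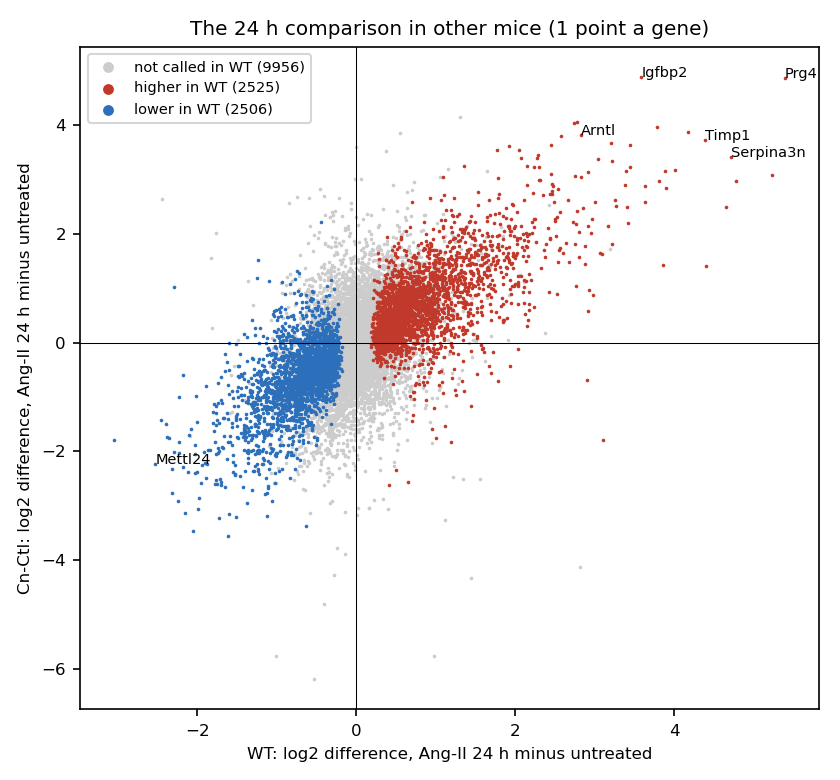
Log2 difference, Ang-II 24 h minus untreated, of each gene in WT (horizontal axis) and in Cn-Ctl mice (vertical axis). Points are coloured by the call in WT: of the 2525 genes called higher, 89.4% lie above 0 on the vertical axis, and of the 2506 called lower, 87.1% lie below it.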

How the data were processed

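RNA was measured by oligo-dT primed sequencing (Illumina Genome Analyzer IIx), and the submitters' processing notes name Bowtie 0.12.7, RSEM 1.16 and the build GRCm38. The authors deposited normalized signal per gene and library, not counts. Whole reads were recovered from every value (tolerance 0.02 reads), and the 6 libraries held 19570000 to 28060000 reads. Genes with a signal of at least 1 in at least 2 libraries of the table were kept, which left 15394 of 15399. Limma 3.58.1 (R 4.3.3) with an intensity trend was fitted to log2(signal + 0.5) over all 18 libraries of the WT and CsA table, or the 22 of the Cn-Ctl table, with two-sided tests, Benjamini-Hochberg adjustment over all genes tested and a threshold of 0.05. Of the tests, only limma for WT 24 h against untreated was checked on simulated data. The simulation had far fewer changed genes than were called here, the same spread in every group and no outlying library. Because each table was normalized separately, tests stayed within a table.

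Samples were grouped by their labels. Each library is a pool of 3 aortas; p-values measure the spread between pools. The read counts of every library differed from those of its replicates by more than sampling noise. Replicate numbers name the libraries only. Named genes were the 12 largest rises and 12 largest falls with a mean signal of at least 5 in one group and no overlap, genes the study measured, in each list up to 4 that passed with the largest change and up to 2 that did not with the highest mean, and 8 a direction for 24 h against 2 h. Some genes that this rule names are not reported here. Other named genes were chosen after their values were seen. The genes and lists were chosen with earlier results of these data known. Alternatives were edgeR 4.0.16 and DESeq2 1.42.0 on the recovered reads, other pseudocounts, filters and scalings, a fit of the 6 libraries alone, protein-coding genes only, a replicate block and leaving out each library.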

Additional observations from a re-analysis of the deposited data

Results flagged for a closer look

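The groups of 3 libraries are too small for an outlier test, so none was made. The results below were set aside because a response differed between groups of mice or between time points by the limma test of that difference. Among 35 genes with the largest changes or of the pathway under study, the response to 24 h of Ang-II differed between WT and CsA-pretreated mice for 18, with adjusted p from 0.00358 to 0.0397, where 8.2% of all genes did. Most of the 35 were chosen for the size of their change in WT, which favours a larger response in WT, so the count and sizes are a description. On the log2 scale the response in WT was larger by 4.38 for Lcn2, 3.99 for Prg4, 3.72 for Serpina3n, 3.24 for Arg1, 3.20 for Ccl6 and 3.18 for Cxcl14. For Timp1 it was larger by 2.66, for Has1 by 2.60, for Fosl1 by 2.53, for Esm1 by 2.40 and for Rcan1 by 1.28. Genes that fell differed by -2.21 (Aknad1), -2.15 (Smim5), -1.97 (Tceal6), -1.85 (Olfr224), -1.74 (Mylk4), -1.43 (Sel1l3) and -1.21 (Mettl24), a deeper fall in WT in each case. In untreated CsA libraries Lcn2, Serpina3n, Ccl6 and Prg4 were above untreated WT by 3.37, 2.73, 2.47 and 1.96.

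Between 2 h and 24 h in WT, 16 genes were chosen for the size of the difference, all with an adjusted p of at most 0.00353. The response at 24 h was above that at 2 h by 5.27 for Prg4, 4.93 for Esm1, 4.16 for Arg1, 4.12 for Serpina3n, 3.94 for Timp1, 3.81 for Chil3, 3.63 for Igfbp2 and 3.59 for Sdf2l1. The difference was -2.87 for Zdhhc23, -2.81 for Gprasp2, -2.76 for Nr4a3, -2.58 for A730049H05Rik, -2.44 for Otud1, -2.33 for Xirp1, -2.28 for Tceal6 and -2.27 for Nfil3. These genes were selected on this difference, and its size is a description.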

How the results depend on the processing

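The comparison of 24 h with untreated called between 4426 and 5424 genes under every alternative that used all libraries (5073 as reported), 5081 with edgeR and 5424 with DESeq2, and 3571 to 4628 when a library was left out, fewest without 24 h library 2. Of the genes called, 3099 were called the same way in each fit without a library. A mean filter of 5 left 490 and 299 genes more than 2-fold higher and lower. The difference between the WT and CsA responses was less stable: 2037 genes with DESeq2 against 1263, and 469 to 2524 without single libraries. The Cn-Ctl comparison gave 230 to 1102 genes without single libraries (811 as reported). A replicate block gave 4898 genes for 24 h against untreated, 1051 for the difference with CsA and 978 in Cn-Ctl; same-numbered libraries had correlations of -0.0899 to 0.0656, so the numbers do not pair them. Of 194 named genes that passed, 166 kept their call in every fit, 28 lost it in a fit without some library (among them Des, Tgfa, Nos3, Retn, Cidec, Tgfb3, Bmp4, Ezr, Xirp1 and Nr4a3) and 6 in another fit (Cidec, Gfap, Ldhb, Oas1a, S100a9 and Tapbp). No called gene reversed, and Gja1, Smad2, Ace, Klf6, Agtr1b and Ncl were among the genes that did not pass but passed in some fits. Depth limits genes with few reads, such as Arg1 and Chil3. The cause of these changes was not tested.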

Other observations

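Some genes outside the lists stood out among the largest differences and were picked after their values were seen, so they are given as values only. Sost, Sfrp2 and Wif1, known as secreted Wnt antagonists, were lower at 24 h. Sost (sclerostin) read 658, 916 and 889 in the untreated libraries and 199, 195 and 209.9 at 24 h, Sfrp2 read 172, 165 and 139.9 in the untreated libraries and 37.6, 42.9 and 34.9 at 24 h, and Wif1 read 45.7, 48.8 and 42.5 in the untreated libraries and 15.4, 14.1 and 15.9 at 24 h, with log2 differences of -2.01, -2.03 and -1.56 (adjusted p from limma of 0.000281, 8.81e-07 and 0.000155). The treated and untreated libraries did not overlap for any of the 3 genes. The small leucine-rich proteoglycan Ogn (865, 1049 and 972 in the untreated libraries and 299.6, 183 and 310.2 at 24 h) and its relative Ecm2 (298, 298 and 255 in the untreated libraries and 82.1, 56.2 and 63.3 at 24 h) were lower as well.

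A set of 3 genes, Msln, Upk1b and Krt8, was uneven among the treated pools. Mesothelin (Msln) read 8.14, 4.78 and 5.45 in the untreated libraries and 11.4, 39.5 and 122 at 24 h, the uroplakin Upk1b 2.03, 1.82 and 1.72 in the untreated libraries and 4.08, 15.3 and 29.00 at 24 h and keratin 8 (Krt8) 0.769, 0.468 and 0.791 in the untreated libraries and 2.74, 9.18 and 25.3 at 24 h. In all 3 genes treated library 1 was the lowest and library 3 the highest, and in Cn-Ctl mice the differences were 3.80, 3.64 and 2.60 on the log2 scale. Among the largest rises given by signal above, Lcn2 and Serpina3n had the same order of treated libraries. Prg4, the gene with the largest rise, had library 1 lowest as well but library 2 highest. Timp1, Esm1, Has1 and Fosl1 also had library 2 highest. A link between these genes and Msln, Upk1b and Krt8 was not tested.

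Genes known from macrophages beyond the marker list included the scavenger receptor Msr1 (1.00, 0.843 and 1.03 in the untreated libraries and 8.13, 18.1 and 11.5 at 24 h), Trem2 (0.414, 0.693 and 0.831 in the untreated libraries and 2.69, 8.29 and 9.77 at 24 h) and the chemokine receptor Ccr1 (0.611, 0.318 and 0.101 in the untreated libraries and 3.15, 9.24 and 4.72 at 24 h). Placental growth factor (Pgf) read 5.62, 5.94 and 8.74 in the untreated libraries and 74.96, 66.3 and 58.4 at 24 h, and it was already at 68.4, 44.2 and 66.4 at 2 h.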
